A study of Mus musculus with 9 samples.

Results

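NF-κB is a family of transcription factors that are held inactive in the cytoplasm by IκB proteins and enter the nucleus once a signal has destroyed the inhibitor. The genes examined here are the 5 that encode the NF-κB subunits (*Nfkb1*, *Nfkb2*, *Rel*, *Rela* and *Relb*) and 5 that encode IκB family proteins (*Nfkbia*, *Nfkbib*, *Nfkbie*, *Nfkbiz* and *Bcl3*). They were taken by gene symbol from the expression values of a single library, and all 10 of the 10 symbols were found, each once, among 52550 listed genes. The experiment comprised 9 samples of splenic plasmacytoid dendritic cells (pDCs) from C57BL/6 mice, 3 for each of 3 *Ncf1* genotypes (labelled GG, AG and AA), every sample having been stimulated with R848 for 12 hours. R848 is a small-molecule ligand of TLR7 and TLR8, the A allele is a knockin that changes arginine to histidine in the NOX2 subunit NCF1, and per the study's methods the pDCs were sorted as CD11c-intermediate, SiglecH+ and PDCA1+ cells. The library with values here is AA replicate 1 (A/A). The other 8 samples, and with them both comparison genotypes, were not analysed here, and the design has no unstimulated group. No value below therefore describes a response to R848 or an effect of genotype, none has a replicate error, and no test between groups was made.

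NF-κB proteins bind DNA as dimers through a shared Rel homology domain. RELA, REL and RELB carry a transactivation domain, whereas the *Nfkb1* and *Nfkb2* products are precursors, p105 and p100, that are cut to the DNA-binding forms p50 and p52 and whose uncut forms act as inhibitors themselves. In the canonical arm the IKK kinases mark IκBα (*Nfkbia*), IκBβ (*Nfkbib*) and IκBε (*Nfkbie*) for degradation, which frees RELA and REL dimers. In the noncanonical arm NIK (*Map3k14*) drives the cutting of p100, which frees RELB with p52. IκBζ (*Nfkbiz*) and BCL3 are atypical members that act inside the nucleus, on DNA-bound p50 or p52 dimers. TLR7, an endosomal receptor for single-stranded RNA, signals to IKK through the adaptor MyD88.

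Several of these genes are known NF-κB targets, so their promoters are shown before their levels. RefSeq promoter windows (GRCm38.p6, 250 bases before to 50 bases after each annotated start) were found for 7 of the 10 genes, in 9 windows, since *Nfkb2* had 3 annotated starts. No window was found for *Nfkb1*, *Relb* or *Nfkbiz*. The κB consensus, in which a GGG and a purine are followed by any 2 bases, 2 pyrimidines and CC, was searched on both strands. It was found in 5 of the 7 genes (*Nfkb2*, *Rel*, *Nfkbia*, *Nfkbie* and *Bcl3*) and not in the windows of *Rela* or *Nfkbib*. Of all 32851 windows, 8.46% held a match, and of all genes with a window, 9.55% did. The 5 windows with a match next to a first annotated start are given below from position -120 to position 30 (counted from 1 at the start, with no position 0), 5′ to 3′ in the direction of transcription, with κB consensus matches in capitals. The *Rela* window is added because it held none.
Nfkb2: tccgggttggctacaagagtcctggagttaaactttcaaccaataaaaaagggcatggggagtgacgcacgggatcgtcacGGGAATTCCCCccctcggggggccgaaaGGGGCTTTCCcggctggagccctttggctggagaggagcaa
Rel: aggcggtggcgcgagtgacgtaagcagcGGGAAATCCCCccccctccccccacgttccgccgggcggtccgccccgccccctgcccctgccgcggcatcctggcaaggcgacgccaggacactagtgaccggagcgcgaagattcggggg
Nfkbia: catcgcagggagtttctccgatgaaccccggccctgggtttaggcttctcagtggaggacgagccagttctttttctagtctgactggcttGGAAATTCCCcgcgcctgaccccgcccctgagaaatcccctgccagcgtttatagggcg
Nfkbie: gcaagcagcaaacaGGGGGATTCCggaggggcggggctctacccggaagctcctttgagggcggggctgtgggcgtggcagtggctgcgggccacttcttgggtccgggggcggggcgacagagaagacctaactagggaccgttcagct
Bcl3: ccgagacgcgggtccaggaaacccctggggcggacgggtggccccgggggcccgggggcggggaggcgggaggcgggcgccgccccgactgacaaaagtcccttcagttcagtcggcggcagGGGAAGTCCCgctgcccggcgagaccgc
Rela: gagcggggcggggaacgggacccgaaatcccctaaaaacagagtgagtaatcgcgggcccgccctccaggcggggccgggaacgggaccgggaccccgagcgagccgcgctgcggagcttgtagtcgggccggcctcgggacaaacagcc

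These stretches lie at chr19:46304617-46304766 (plus strand) for *Nfkb2*, chr11:23770940-23771089 (minus strand) for *Rel*, chr12:55492618-55492767 (minus strand) for *Nfkbia*, chr17:45555580-45555729 (plus strand) for *Nfkbie*, chr7:19822726-19822875 (minus strand) for *Bcl3* and chr19:5637421-5637570 (plus strand) for *Rela*. In *Nfkb2*, the run of capitals from -39 to -29 holds overlapping matches on both strands, and a further match lies from -11 to -2. In *Rel*, the run from -92 to -82 again holds overlapping matches on both strands. The *Nfkbia* match, from -29 to -20, is on the minus strand relative to the gene. The *Nfkbie* match lies from -106 to -97, and the *Bcl3* match lies just after the start, from 3 to 12. The other *Nfkb2* starts had matches too, at -236 to -227 and 11 to 20 for start 2 and at -225 to -216 for start 3. The match at 11 to 20 and that at -225 are the same stretch of DNA, as those windows overlap. A looser pattern that keeps only the outer GGG and CC was present in 6 of the 7 genes and in 53.5% of all genes with a window, and the GC box GGGCGG was present in 6 of the 7 and in 38.2%. The GC box was absent from the windows of *Nfkbib* and of the first *Nfkb2* start. TATAAA was found in *Nfkbia* alone, on the minus strand from 20 to 25, and in 15.7% of all genes with a window. A pair of GAAA repeats with 2 bases between them, the core of the interferon-stimulated response element, was found in 0 of the 7, against 3.99% of all genes. A match is a string of letters and was not measured as a bound site.

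**Figure D1:**
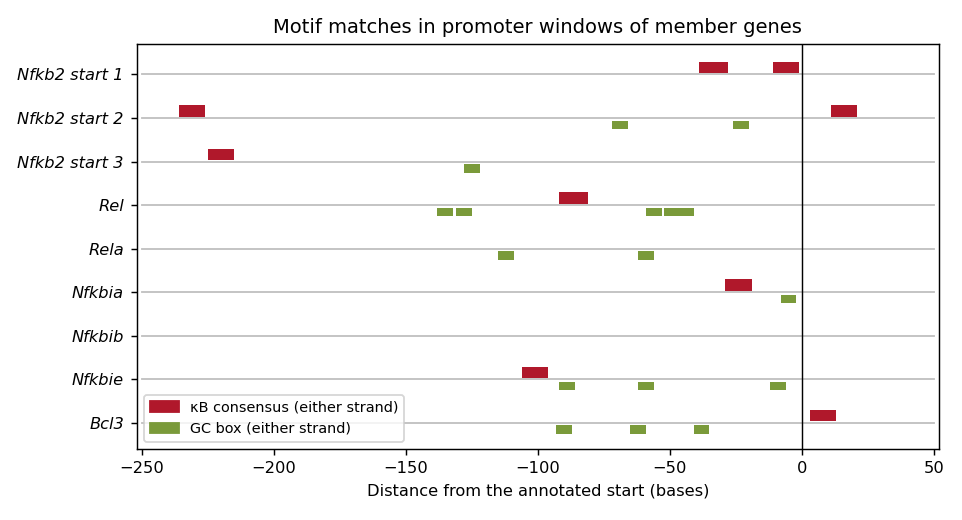
Position of κB consensus matches (red) and GC boxes (green) in the 9 promoter windows of 7 member genes, with distance from the annotated start in bases on the x axis and matches on either strand drawn alike. Red blocks are present for *Nfkb2*, *Rel*, *Nfkbia*, *Nfkbie* and *Bcl3* and absent for *Rela* and *Nfkbib*.

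The deposited values had no stated unit, but each value above 0 was a whole multiple of 1.192, and dividing by it (tolerance of 0.01) gave 31408298 whole reads on 17664 genes. Levels are given on 2 scales. CPM is a gene's share of the library per 1000000. TPM divides reads by the summed length of a gene's annotated exons before scaling to 1000000, so it is the scale on which genes can be compared with each other. Intervals are Wilson 95% confidence intervals on the reads of a single library, so they cover counting error only. They also leave out PCR copies of a molecule, which cannot be told from separate molecules in these reads. All 11 pDC markers had reads, from 34.0 TPM (*Tcf4*) to 6001 TPM (*Ly6d*) with a median of 251 TPM, and of the markers used in the sort *Bst2* (PDCA1) was at 4774 TPM and *Siglech* at 287 TPM. The lowest 3 of them by TPM, *Tcf4*, *Pacsin1* (35.3 TPM) and *Runx2* (55.7 TPM), lay within the range of the conventional DC markers. This depended on length, as the exons of *Tcf4* span 27382 bases in all. By CPM, *Tcf4* (358 CPM) and *Runx2* (189 CPM) were above every conventional DC marker, the highest being *Zbtb46* at 106 CPM. *Pacsin1* (88.6 CPM), *Cox6a2* (65.6 CPM) and *Klk1* (46.2 CPM) were not. Of other cell types, the 8 conventional DC markers ran from 0 (*Cd209a*) to 58.4 TPM (*Clec9a*) with *Zbtb46* at 32.3 TPM, the 5 B cell markers from 0 (*Pax5*) to 6.71 TPM (*Cd79b*), the 5 macrophage or monocyte markers from 1.03 to 23.8 TPM, and the 4 neutrophil markers from 0 (*Ly6g*) to 55.0 TPM (*S100a8*). Of the 6 T cell markers, *Cd3d*, *Cd3e*, *Cd3g* and *Bcl11b* were at 0, while *Cd4* was at 12.5 TPM and *Cd8a*, which pDCs can also express, at 237 TPM. The part of such cells in the levels below was not tested. Fewer cells of a type and less RNA per cell cannot be told apart in a bulk sample. The study's methods state female mice, yet Y-linked *Ddx3y* had 102 CPM and *Xist* was at 0 in this library, and the reads do not separate the alleles of *Ncf1* (1079 CPM), so its genotype label could not be checked.

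All 10 genes stood above the median gene with reads. Together they held 102424 reads, or 0.326% of the library, of which 54101 fell on subunit genes and 48323 on IκB genes. Their levels ran from 23.8 TPM (*Nfkb1*) to 821 TPM (*Nfkbia*), a range of 34.5-fold, with a median of 257 TPM, against a median of 4.94 TPM over the 17632 genes with reads and an exon length and 9.96 TPM over protein-coding genes with reads. By TPM, 7 of the 10 stood above percentile 95 of genes with reads and the lowest, *Nfkb1*, stood at 76.4, or at 71.2 among genes with at least 10 reads and 68.5 among protein-coding genes with reads. Counting error was small at this depth: the half-width of the interval was between 1.36% and 3.79% of the level. The members fell into a group of 7 at 242 TPM or higher and a group of 3 (*Rel*, *Nfkbiz* and *Nfkb1*) at 65.0 TPM or lower.

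**Figure D2:**
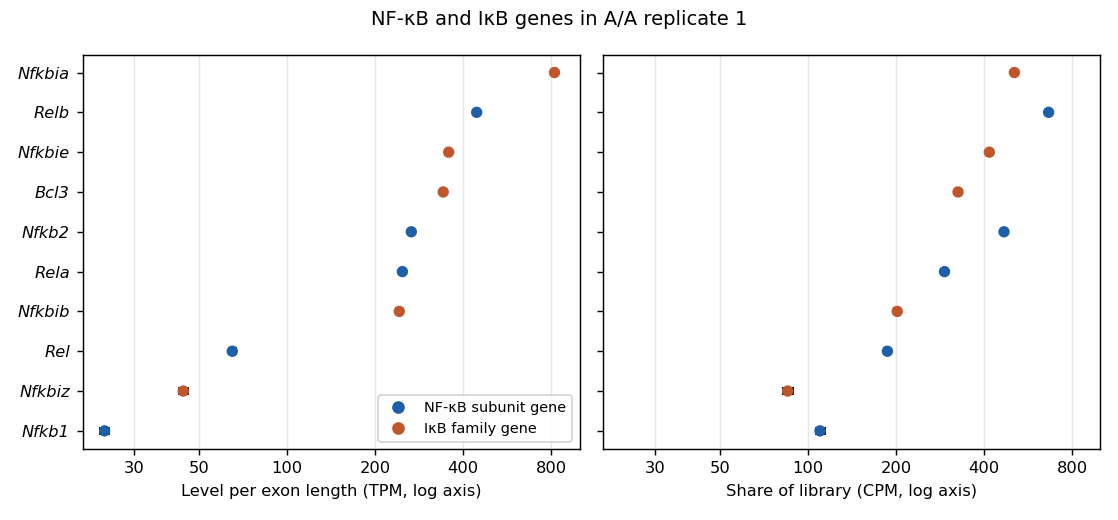
Level of each gene in A/A replicate 1 on log axes, in TPM (left) and CPM (right), with subunit genes in blue, IκB family genes in orange and 95% counting intervals as bars. *Nfkbia* was highest by TPM at 821 and *Relb* was highest by CPM at 665, and most bars are narrower than the points.

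Among the subunit genes, those of the noncanonical arm were the highest. *Relb* (ENSMUSG00000002983.17, chromosome 7, 19606217 to 19629438, minus strand of GRCm38), whose product pairs mainly with p52 or p50, had 20875 reads, 665 CPM (95% CI, 656 to 674) or 445 TPM (95% CI, 439 to 451), at percentile 98.3 by TPM. *Nfkb2* (ENSMUSG00000025225.14, chromosome 19, 46304737 to 46312090, plus strand), the gene of p100, had 14701 reads, 468 CPM or 266 TPM (95% CI, 261 to 270). Exons of *AC114539.1* and *Psd*, on the opposite strand, cover 18.1% of its exon bases. Of its 50-base transcript windows, 14.9% also occur in transcripts of 2 other genes. Those windows were matched on both strands, so this share can include the same opposite-strand overlap. *Psd*, which shares 6.52% of the exon bases of *Nfkb2*, had 179 reads, and *AC114539.1*, which shares 11.6%, was not analysed here. *Relb* and *Nfkb2* together made up 67.8% of the summed TPM of the 5 subunit genes.

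*Rela* (ENSMUSG00000024927.7, chromosome 19, 5637483 to 5648130, plus strand), which encodes the p65 subunit of the classical dimer, had 9199 reads, 293 CPM or 248 TPM (95% CI, 243 to 253). *Rel* (ENSMUSG00000020275.9, chromosome 11, 23736847 to 23770970, minus strand), the gene of c-Rel, had 5858 reads, 187 CPM or 65.0 TPM (95% CI, 63.3 to 66.7). The level of *Rel* per exon length was thus 0.262 times that of *Rela* (95% CI, 0.254 to 0.271), while its reads were 0.637 times as many, because its only annotated transcript is long, at 7466 bases. *Relb* was 1.79 times *Rela* per exon length (95% CI, 1.75 to 1.84).

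*Nfkb1* (ENSMUSG00000028163.17, chromosome 3, 135584655 to 135691547, minus strand), the gene of p105 and p50, was the lowest of the 5, with 3468 reads, 110 CPM (95% CI, 107 to 114) or 23.8 TPM (95% CI, 23.0 to 24.6). Its place depended on the length used. The union of the exons of its 10 annotated transcripts is 12061 bases. The exons of its 3 protein-coding transcripts span 4124 bases, and its other transcripts are not classed as protein-coding. With exons of protein-coding transcripts as the length, *Nfkb1* was at 62.8 TPM and *Rel* at 58.6 TPM, so the order of the pair turned. That length leaves all reads of a gene in its count, including any on exons outside those transcripts. How far such reads raise *Nfkb1* was not tested. *Nfkb2* exceeded *Nfkb1* on every scale, by 11.2 times over all exons (95% CI, 10.7 to 11.6), by 4.14 times over exons of protein-coding transcripts (95% CI, 3.99 to 4.30) and by 4.24 times in reads (95% CI, 4.08 to 4.4). As shares of the summed subunit TPM, *Relb* had 42.5%, *Nfkb2* 25.4%, *Rela* 23.7%, *Rel* 6.20% and *Nfkb1* 2.27%. *Relb*, *Nfkb2* and *Rela* kept this order under each of 4 exon lengths and without length correction. *Nfkb2* was 1.07 times *Rela* over all exons (95% CI, 1.04 to 1.10). The length of unshared bases leaves reads on shared bases in each gene's count. It therefore cannot show whether reads of opposite-strand genes place *Nfkb2* above *Rela*, which was not tested.

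**Figure D3:**
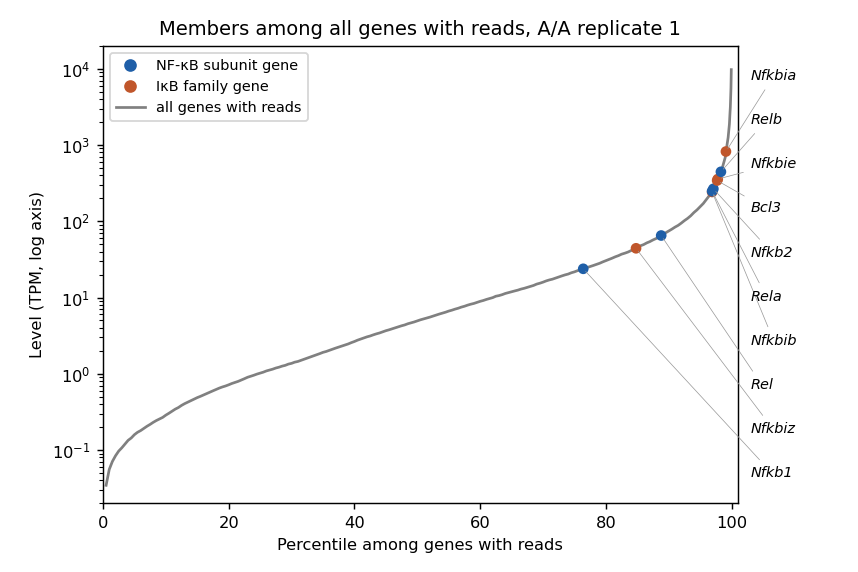
Members placed on the curve of TPM (log axis) against percentile for all genes with reads in A/A replicate 1, subunit genes in blue and IκB family genes in orange. The 7 higher members crowd at percentiles 96.9 to 99.1, while *Rel*, *Nfkbiz* and *Nfkb1* lie at 88.8, 84.8 and 76.4.

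Among the IκB genes, that of IκBα stood first. *Nfkbia* (ENSMUSG00000021025.8, chromosome 12, 55489410 to 55492647, minus strand), which encodes IκBα, had 15958 reads, 508 CPM (95% CI, 500 to 516) or 821 TPM (95% CI, 808 to 834), at percentile 99.1. By TPM it ranked 152 of 17632 genes. Its exons span 1610 bases, the shortest of the 10 members. *Nfkbie* (ENSMUSG00000023947.7, chromosome 17, 45555716 to 45563169, plus strand), the gene of IκBε, had 13109 reads, 417 CPM or 357 TPM (95% CI, 350 to 363). *Nfkbib* (ENSMUSG00000030595.15, chromosome 7, 28758251 to 28767512, minus strand), the gene of IκBβ, had 6343 reads, 202 CPM or 242 TPM (95% CI, 236 to 248). *Nfkbia* exceeded *Nfkbib* 3.39-fold per exon length (95% CI, 3.29 to 3.49) and *Nfkbie* exceeded it 1.47-fold (95% CI, 1.43 to 1.52). Exons of *Ccer2* and *Sirt2*, on the opposite strand, cover 16.4% of the exon bases of *Nfkbib*. *Sirt2* had 3136 reads but shares only 1.94% of those bases, and *Ccer2*, which shares 14.5%, had 79 reads.

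The 2 atypical genes differed from each other. *Bcl3* (ENSMUSG00000053175.17, chromosome 7, 19808462 to 19822770, minus strand), whose product can turn p50 or p52 homodimers into activators, had 10234 reads, 326 CPM or 342 TPM (95% CI, 336 to 349). *Nfkbiz* (ENSMUSG00000035356.16, chromosome 16, 55811375 to 55838899, minus strand), whose product IκBζ is needed for a set of secondary response genes in macrophages, had 2679 reads, 85.3 CPM (95% CI, 82.1 to 88.6) or 44.2 TPM (95% CI, 42.6 to 45.9), the fewest reads of the 10 members. *Bcl3* and *Nfkbie* changed places with the length used: *Nfkbie* was 1.04 times *Bcl3* over all exons (95% CI, 1.01 to 1.07) and 0.973 times over exons of protein-coding transcripts (95% CI, 0.948 to 0.999). An antisense gene inside *Bcl3*, *Gm16175*, shares 6.51% of its exon bases and had 67 reads. *Nfkbid*, a further atypical IκB gene that is not among the 10, had 4373 reads or 154 TPM (95% CI, 150 to 159), between *Nfkbib* and *Rel*. As shares of the summed IκB TPM, *Nfkbia* had 45.4%, *Nfkbie* 19.7%, *Bcl3* 19.0%, *Nfkbib* 13.4% and *Nfkbiz* 2.45%.

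Set side by side in order of TPM, the 10 genes ran *Nfkbia*, *Relb*, *Nfkbie*, *Bcl3*, *Nfkb2*, *Rela*, *Nfkbib*, *Rel*, *Nfkbiz* and *Nfkb1*. Of the 9 neighbouring pairs, 8 differed over all exons beyond counting error by the exact conditional binomial interval of their ratio. *Rela* and *Nfkbib* did not (ratio 1.02, 95% CI, 0.992 to 1.06). The largest step was between *Nfkbib* and *Rel*, 3.73-fold (95% CI, 3.60 to 3.86). With reads alone that step was 1.08-fold (95% CI, 1.04 to 1.12). The same 7 genes nevertheless stood above the same 3 under all 4 exon lengths and without length correction. *Nfkbia* was the highest under the 4 exon lengths and *Relb* without length correction. Within the 2 groups, pairs turned with the length used. *Nfkbiz* was 1.86 times *Nfkb1* over all exons (95% CI, 1.76 to 1.95). It was 0.770 times *Nfkb1* over exons of protein-coding transcripts (95% CI, 0.732 to 0.810) and 0.772 times in reads (95% CI, 0.734 to 0.813). *Bcl3* was 1.29 times *Nfkb2* over all exons and 0.696 times in reads. Counting error does not include variation between animals, which was not measured here.

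**Figure D4:**
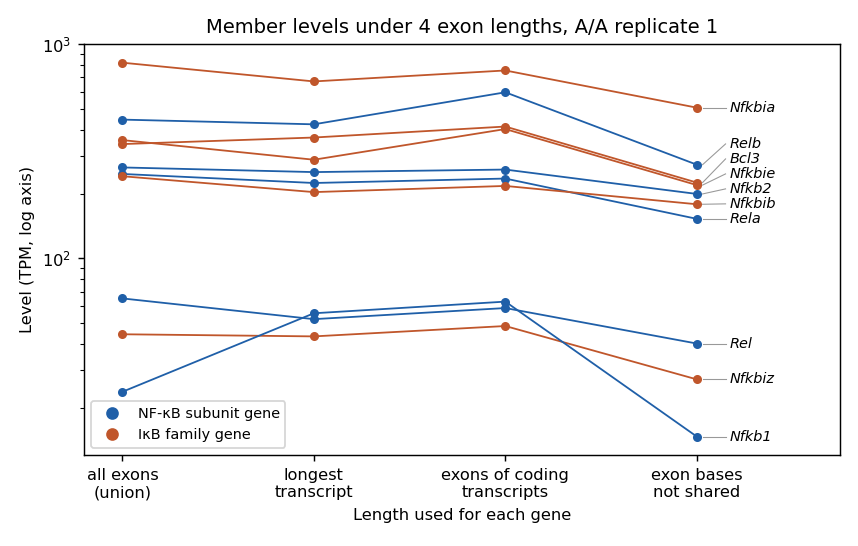
TPM (log axis) of each member in A/A replicate 1 with 4 definitions of a gene's length on the x axis, subunit genes in blue and IκB family genes in orange. Lines within the upper 7 cross, *Nfkb1* moves from 23.8 with all exons to 62.8 with exons of protein-coding transcripts, and no line crosses the gap between the upper 7 and the lower 3.

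The summed level of the 5 IκB genes was 1806 TPM and that of the 5 subunit genes 1047 TPM, a ratio of 1.72 (95% CI of the counts, 1.70 to 1.75). Without length correction the ratio fell below 1, at 0.893. The 3 classical IκB genes alone gave 1.36 over all exons, 1.15 with the longest transcript, 1.13 with exons of protein-coding transcripts and 0.655 without length correction, so both ratios turned direction with length correction. The ratio of *Nfkbia* to *Rela*, an inhibitor and the subunit it chiefly holds, was 3.31 per exon length (95% CI, 3.23 to 3.40) and 1.73 in reads (95% CI, 1.69 to 1.78). These are ratios of RNA, and protein was not measured in these data.

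Around the members, 86 further genes of the pathway and its known targets were examined. Of these, 82 were above the floor of 3 reads and 68 were above the median of all genes with reads. Over all 52550 listed genes, 17664 had reads, and 15936 of the 17632 genes with reads and an exon length were above the floor. The median of the 86 genes was 41.1 TPM, against 257 TPM for the members. Of the IKK complex, *Chuk* (IKKα) was at 63.9 TPM, *Ikbkb* (IKKβ) at 27.1 TPM and *Ikbkg* (NEMO) at 10.2 TPM. The counting interval of *Chuk* (61.9 to 65.9 TPM) overlapped that of *Rel*, and *Ikbkb* was above *Nfkb1*. The median of the 3 IKK genes depended on length, at 27.1 TPM over all exons and 74.3 TPM with the longest transcript. The exons of *Ikbkb* span 19078 bases in all. The TAK1 complex, which activates IKK, ran from 2.44 TPM (*Tab3*) and 3.78 TPM (*Tab2*) to 15.5 TPM (*Map3k7*, TAK1 itself) and 23.4 TPM (*Tab1*). Of the IKK-related kinases and their adaptors, *Tbk1* was at 98.7 TPM, *Tank* at 89.3 TPM and *Azi2* at 27.1 TPM, while *Ikbke* and *Tbkbp1* were at 1.74 and 1.35 TPM. In the noncanonical arm, *Map3k14* (NIK) was at 11.5 TPM and *Traf3* at 9.03 TPM, and *Birc3*, *Birc2* and *Traf2*, which with TRAF3 keep NIK low, were at 189, 163 and 104 TPM.

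In LUBAC, the linear ubiquitin ligase upstream of IKK, *Rbck1* was at 163 TPM, *Rnf31* at 80.1 TPM and *Sharpin* at 31.1 TPM. Of the paralogous F-box genes of the ligase that marks phosphorylated IκB, *Fbxw11* was at 97.6 TPM and *Btrc* at 2.55 TPM, and *Rbx1*, *Skp1a* and *Cul1* were at 94.6, 77.2 and 52.3 TPM. By CPM, *Fbxw11* was at 162 and *Btrc*, whose exons span 16908 bases in all, at 16.6. All 9 deubiquitinases and A20 partners were detected, the highest by TPM being *Otulin* at 130 TPM, *Tnfaip3* (A20) at 127 TPM and *Tax1bp1* at 63.5 TPM, and the lowest *Itch* at 20.6 TPM and *Cyld* at 17.4 TPM. The counting intervals of *Otulin* (125 to 135 TPM) and *Tnfaip3* (125 to 129 TPM) overlapped. This order depended on length. By CPM, *Tnfaip3* (353) was above *Otulin* (84.8), and the lowest was *Rnf11* (35.7), below *Cyld* (84.0) and *Itch* (77.0). Of 9 nuclear regulators, *Rps3* was the highest at 105 TPM and *Ing4* was at 29.5 TPM, although 34.9% of the exon bases of *Ing4* are shared with another gene, *Pdlim7* was at 1.21 TPM, and *Nkrf* was listed at 0, which allows up to 3 reads or 0.0955 CPM.

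Levels of known NF-κB targets ran from 0 to 7292 TPM. Of 13 feedback and survival genes, *Gadd45b* was at 1118 TPM, *Il4i1* at 1038 TPM and *Junb* at 816 TPM, the last with an interval (95% CI, 805 to 827) that overlaps that of *Nfkbia*, and *Myc* and *Zc3h12a* were at 8.35 and 3.30 TPM. Exons of other genes cover 86.3% of the exon bases of *Il4i1*. Of 17 cytokine and chemokine genes, *Ccl5* was at 7292 TPM, *Cxcl10* at 2392 TPM and *Ccl22* at 1507 TPM, *Cxcl1* and *Il23a* were at 0.398 and 0.221 TPM, and *Csf2* and *Il1a* were at 0. Of 12 surface and other targets, the chemokine receptor gene *Ccr7* was at 4851 TPM, *Cd83* at 1888 TPM and *Icam1* at 651 TPM, *Ptgs2* and *Nos2* were at 1.74 and 1.52 TPM, and *Plau* was at 0.

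**Figure D5:**
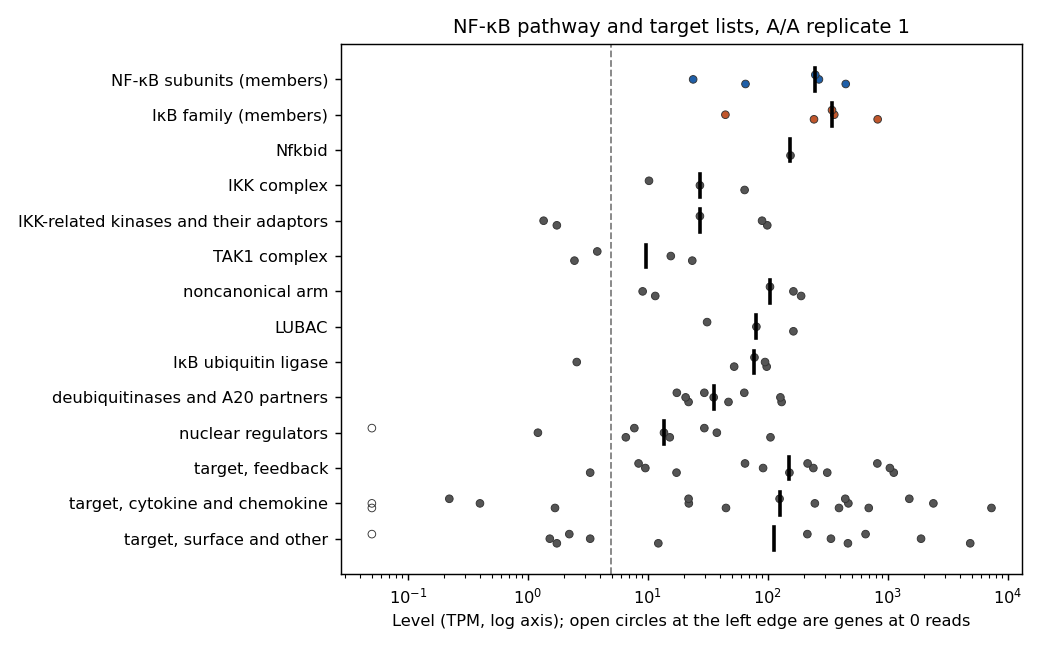
TPM (log axis) of every gene in each list in A/A replicate 1, with black bars at list medians, a dashed line at the median of all genes with reads (4.94 TPM) and open circles at the left edge for genes at 0. The medians of the member lists are 248 TPM for the subunits and 342 TPM for the IκB family, and the IKK and TAK1 complexes lie lower, at 27.1 and 9.63 TPM.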

How the data were processed

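mRNA libraries of R848-treated splenic pDCs from 3 *Ncf1* genotypes were sequenced as paired-end reads. The authors deposited a normalized signal per gene without a stated unit. HISAT2 and StringTie are named in the submitters' processing notes, with the builds mm8 and mm10. The counting tool, annotation and use of strand are not given in the sources used here. The deposited coordinates match GRCm38. The values of AA replicate 1 were whole multiples of 1 step for 100% of genes with reads (31408298 reads, 17664 genes), so reads were recovered.

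Exon lengths came from GENCODE M21, to which 99.7% of identifiers matched, 95.2% of these with identical coordinates. TPM used the union of exons, and CPM used the column total. Percentiles were taken among genes with reads. Intervals were Wilson, or exact conditional binomial for ratios, at 95%, and the floor was 3 reads. Promoters came from RefSeq. Python 3.11.15, numpy 2.4.6, pandas 2.3.3, scipy 1.17.1 and matplotlib 3.10.9 were used, and scripts were tested on simulated data. Alternatives were the longest transcript, exons of protein-coding transcripts, unshared exon bases, no length correction, other sets of ranked genes, a floor of 10 reads and the classical IκB genes alone. Of each pathway list, the 3 highest and 2 lowest genes and those at 0 were named, with the members, except for an item that is not reported here. Members and lists were chosen with earlier results of these data known. With a single library, no genotypes were compared, likeness to other genes could not be measured and the planned protein features were not analysed here.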

Additional observations from a re-analysis of the deposited data

How the results depend on the processing

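No paired analysis was possible because only AA replicate 1 has values here. The median percentile of the members, 97.0, was 99 over all listed genes, 96.3 over genes with at least 10 reads, 96.0 over protein-coding genes with reads, 96.9 without length correction, and 96.6, 95 and 96.9 with the longest transcript, exons of protein-coding transcripts and unshared exon bases. Over all listed genes it rises by construction. In the same order of lengths and then without correction, 5, 5, 6 and 3 of the 10 members kept their rank, the share of *Relb* among subunits (42.5%) was 41.9%, 49.2%, 40.2% and 38.6%, the share of *Nfkbia* among IκB genes (45.4%) was 42.6%, 41.1%, 43.7% and 33.0%, and the ratio of IκB to subunit genes (1.72) was 1.56, 1.51, 1.70 and 0.893, against 1.36 with the 3 classical IκB genes over all exons (1.15, 1.13, 1.33 and 0.655 in the same order). The same reads of each gene were used with every length. The lengths differ, and genes left without a length under a definition also drop out of the sum and the ranking. The median of the 86 pathway and target genes (41.1 TPM) was 51.7 TPM with the longest transcript, and 80 of the 86 had at least 10 reads. All 10 single TPM values fell with unshared exon bases. Reads on shared bases stayed in each gene's own count while its length was cut, so the sum used for scaling rose. Depth limited the lowest targets, such as *Il23a* with 6 reads (95% CI, 0.101 to 0.483 TPM).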

Other observations

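*Relb* and *Bcl3* both lie on chromosome 7, with 179 kb between them. Between *Relb* and *Bcl3*, or inside the latter, 15 other genes are listed, of which 10 are protein-coding, and 7 of the 15 were at 0, including the apolipoprotein genes *Apoc1*, *Apoc2* and *Apoc4*. Of all 52550 listed genes, only 17664 had reads. Next to *Relb*, *Clptm1* was at 178 TPM. *Apoe* was at 87.2 TPM, *Nectin2*, an adhesion molecule gene, at 50.9 TPM, *Tomm40*, which encodes the mitochondrial import channel, at 21.4 TPM, and *Bcam* at 0.906 TPM. By TPM, *Relb* at 445 and *Bcl3* at 342 were each higher than all 15 in this library. By CPM, *Clptm1* (425) was above *Bcl3* (326) and below *Relb* (665).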
